A study of Drosophila melanogaster with 18 samples.

Results

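The comparison described here asks what changed in the larval nervous system when an RNAi hairpin against pointed (pnt) was added to neurons that already overexpressed TFAM. TFAM packages mitochondrial DNA and starts its transcription, and its overexpression is used in the study to disturb mitochondria in neurons. The study holds 18 arrays, 3 for each of 6 genotypes, and the comparison uses 6 of them: 3 labelled TFAM o/e, Pnt RNAi and 3 labelled TFAM o/e. In both groups nsybGal4 drove UAS-TFAM3M, and the first also carried UAS-Pnt RNAi, line JF02227. The control had nsybGal4 alone, and the other genotypes were Pnt RNAi, Aop RNAi (line 3166R1) and TFAM o/e, Aop RNAi. Each array was made from the complete CNS of 20 wandering larvae grown at 25 °C, with RNA prepared in triplicate per genotype. nsybGal4 acts in neurons, whereas the RNA came from neurons, glia and neuroblasts alike, so a neuronal change is diluted, and fewer cells of a type and less RNA per cell cannot be told apart. Nothing states whether the triplicates came from separate crosses, so the p-values measure the spread between these arrays, which may be technical.

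Pnt is an ETS transcription factor that carries the signal of the Ras-ERK cascade into the nucleus. Receptor tyrosine kinases such as Egfr activate Ras, which works through Raf, MEK and ERK, and ERK turns Pnt on as an activator and removes Aop, also known as Yan, the ETS repressor that competes for the same sites. In Drosophila the pathway is best known from photoreceptor, glial and tracheal development, and many of its targets, such as argos and sprouty, are its own inhibitors.

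The array carries 18952 probe sets, of which 183 are AFFX controls, and the remaining 18769 were tested. The values are log2 signals, so a difference of 1 is a 2-fold difference. Of the probe sets tested, 8563 had a mean log2 of 6 or more over the 6 arrays. In this brighter part the median SD between arrays was 0.16 in TFAM o/e and 0.19 in TFAM o/e, Pnt RNAi, against 0.75 and 0.80 below log2 6, where MAS5.0 values scatter widely. Over the 18 arrays medians ran from 5.03 to 5.56 and 3.44% to 7.42% of values were at 0. The array farthest from the others was control replicate 3, with a mean absolute deviation of 0.406 from the median array. Within the comparison it was TFAM o/e, Pnt RNAi replicate 1, with 0.292. Markers of the CNS were present: the 12 probe sets of the neuronal list (elav, nSyb, brp and others) had array means of 8.20 to 8.23 in TFAM o/e and of 8.27 to 8.35 in TFAM o/e, Pnt RNAi, and repo, the glial homeobox gene, lay between 11.67 and 11.83 on all 6 arrays.

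TFAM itself was high on both sides. Its probe set gave 12.04, 12.08 and 12.12 in TFAM o/e and 12.58, 11.84 and 12.03 with the hairpin, against 10.58 ± 0.15 (SD, n = 3) in the control. The log2 difference between the groups compared was 0.07, with a 95% interval from -0.28 to 0.42. The probe set of pnt, the targeted gene, gave 8.38, 8.48 and 8.09 in TFAM o/e and 9.18, 9.28 and 9.16 on the 3 arrays that carry the Pnt RNAi label. All 3 hairpin arrays were thus higher, by 0.89 (standard error 0.19), which did not pass the test (limma adjusted p = 0.091) but passed with the replicate number as a block (limma adjusted p = 0.0208). In Pnt RNAi without TFAM o/e it was also higher than in the control, at 9.49 against 8.44, a difference of 1.05 that passed (limma adjusted p = 0.017). This goes against a knock-down read from the RNA signal of this probe set. For the same line the paper reports that PntP2 staining was nearly gone in eye discs, which is a measure of protein in another tissue. Whether the probes lie inside the part of the transcript that the hairpin matches is not known here, so the genotypes are named as they are labelled and every direction below rests on the labels. The probe set of aop gave 10.63, 10.72 and 10.61 against 10.28, 10.88 and 10.77, a difference of -0.01 (interval -0.34 to 0.32).

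Few probe sets were called. At a limma adjusted p under 0.05, 30 probe sets were called, 0.16% of those tested, with 17 higher (0.0906%) and 13 lower (0.0693%) in TFAM o/e, Pnt RNAi than in TFAM o/e. Among the brighter probe sets 23 were called, 0.269%, with 13 higher (0.152%) and 10 lower (0.117%). All 30 had no overlap between the 3 and 3 arrays, which held for 9.53% of all probe sets. Of the brighter probe sets, 96.5% differed by no more than 0.5 in either direction, and their median difference was -0.03. At an unadjusted p under 0.05, 864 probe sets passed, or 4.6%, and at the methods' thresholds, which add a fold change of 1.5, 703 passed, or 3.75%. Of these 485 were higher (2.58%) and 218 lower (1.16%), and 120 were among the brighter probe sets (1.4% of those). With each array left out in turn the 30 calls became 12 to 18, the lowest without TFAM o/e, Pnt RNAi replicate 3. Of the 30, 12 were called in all 6 such fits: y, v, Cyp12a4, Zip102B, Mocs1, hng3, CG43117, CG3397, CTCF and 3 probe sets with no single gene name.

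**Figure D1:**
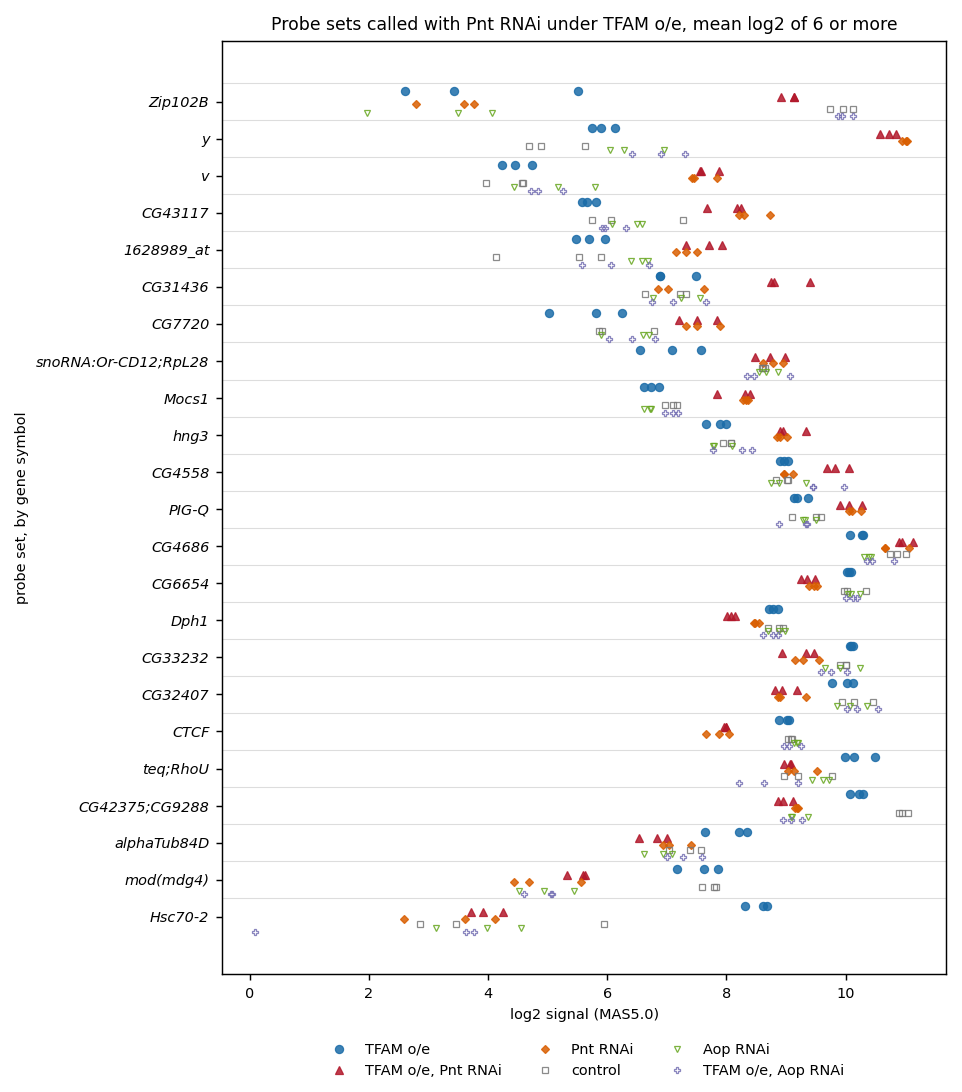
Log2 signals (horizontal axis) of the 23 called probe sets with a mean log2 of 6 or more, 1 row each; every symbol is 1 array, with 3 arrays for each of the 6 genotypes. In most rows the red triangles (TFAM o/e, Pnt RNAi) lie with the orange diamonds (Pnt RNAi), away from the other 12 arrays, whereas in the rows of Hsc70-2, alphaTub84D, teq;RhoU, CG4686 and the RpL28 probe set it is the blue circles (TFAM o/e) that lie apart.

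The called probe sets fell into a few patterns when all 18 arrays were set side by side. For 16 of the 30 the 6 arrays with the Pnt hairpin lay outside the range of the other 12 arrays, which was so for 38 probe sets of all tested, or 0.202%. For 5 only the 3 TFAM o/e arrays lay outside the range of the other 15, as for 44 of all probe sets (0.234%). For 5, of which Dph1 is also among the 16, it was the 3 arrays of TFAM o/e, Pnt RNAi, as for 61 of all (0.325%). For 2, the 12 arrays with either hairpin lay outside the other 6, as for 14 of all (0.0746%), and 3 showed none of these patterns. These counts describe the probe sets called in the comparison and carry no test, since the call already separates the TFAM o/e arrays from the TFAM o/e, Pnt RNAi arrays.

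Both pigment genes y and v were called, y with the smallest adjusted p of all. yellow (y), a secreted protein of black melanin pigment, read 6.14, 5.90 and 5.75 in TFAM o/e and 10.58, 10.84 and 10.73 in TFAM o/e, Pnt RNAi. It was 27.6-fold higher, a log2 difference of 4.79 (standard error 0.27, limma adjusted p = 8.57e-09). vermilion (v), the tryptophan oxygenase that opens the synthesis of brown eye pigment, read 4.45, 4.74 and 4.24 against 7.58, 7.88 and 7.55, a difference of 3.19 (standard error 0.34, limma adjusted p = 0.00012), or 2.67 with values under log2 5 set to 5. Marker copies of y and v are carried by the insertions of the JF collection of RNAi lines. The paper does not give the markers of line JF02227, and the part of such copies in these differences was not tested. None of the other 11 probe sets of the pigment list was called. Ddc, which makes dopamine, had a difference of -0.38, ebony (e) of 0.20 and pale (ple), the tyrosine hydroxylase, of 0.06.

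Several enzymes stood out in the same arrays. Cyp12a4, a mitochondrial cytochrome P450 known in flies from insecticide resistance, read 3.33, 3.19 and 3.89 in TFAM o/e and 6.95, 7.31 and 7.33 with the hairpin. The difference was 3.73 (standard error 0.46, limma adjusted p = 0.000451), or 2.2 with the floor at log2 5. A second, brighter probe set of Cyp12a4 had a difference of 0.13, so its probe sets disagree. Mocs1, which takes the first step in making the molybdenum cofactor, rose from 6.62, 6.74 and 6.87 to 7.85, 8.32 and 8.4, by 1.45 (standard error 0.17, limma adjusted p = 0.000451). The other 8 probe sets of the molybdenum list were not called: the cofactor sulfurase mal had a difference of -0.22, the xanthine dehydrogenase ry of 0.01 and the aldehyde oxidase AOX3 of -0.38. PIG-Q, a subunit of the enzyme that begins GPI anchors, rose from 9.13, 9.19 and 9.37 to 9.91, 10.05 and 10.28, by 0.85 (standard error 0.16, limma adjusted p = 0.0343). Dph1, which starts the diphthamide modification of elongation factor 2, fell from 8.71, 8.78 and 8.87 to 8.01, 8.08 and 8.14, a difference of -0.71 (standard error 0.13, limma adjusted p = 0.0305). The calls of PIG-Q and Dph1 were lost with any 1 of the 6 arrays left out.

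DNA-binding proteins were among the called probe sets in either direction. CTCF, the insulator protein that bounds chromatin domains, read 9.01, 9.05 and 8.89 in TFAM o/e and 7.96, 8.0 and 7.99 in TFAM o/e, Pnt RNAi, a 2-fold lower level and a log2 difference of -1.0 (standard error 0.13, limma adjusted p = 0.00073). Its 2 other probe sets gave -0.91 (limma adjusted p = 0.0607, or 0.0358 with the replicate block) and -0.20, so 1 of its 3 probe sets was called, or 2 with the block. mod(mdg4), which encodes a large family of chromatin proteins that share a common start and differ in their ends, fell at 1 of its 22 probe sets. There the values were 7.18, 7.62 and 7.86 against 5.32, 5.63 and 5.60, a difference of -2.04 (standard error 0.33, limma adjusted p = 0.0102), and leaving out 1 array ended this call in 4 of 6 cases. The other 21 probe sets of mod(mdg4) ranged from -0.26 to 0.42. The called one was as low in the Aop hairpin arrays, at 4.97 ± 0.47 (SD, n = 3) in Aop RNAi and 4.91 ± 0.26 (SD, n = 3) in TFAM o/e, Aop RNAi, so a low value there was not limited to arrays with the Pnt hairpin. hng3, a gene of the hinge family, rose from 8.0, 7.90 and 7.66 to 9.33, 8.95 and 8.90, by 1.21 (standard error 0.18, limma adjusted p = 0.0033). CG6654, a zinc finger gene, fell by 0.69 (standard error 0.12, limma adjusted p = 0.0267), from 10.03, 10.09 and 10.06 to 9.26, 9.49 and 9.36.

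In Zip102B and Hsc70-2 the TFAM o/e arrays were far from the control as well. Zip102B, of the ZIP family of zinc importers, read 2.61, 5.51 and 3.43 in TFAM o/e and 8.91, 9.13 and 9.13 in TFAM o/e, Pnt RNAi, a difference of 5.21 (standard error 0.55, limma adjusted p = 0.00012), or 3.89 with the floor. Its levels over the genotypes came in 2 bands: control (9.94 ± 0.19) and TFAM o/e, Aop RNAi (9.98 ± 0.13) were high as well, while Pnt RNAi (3.38 ± 0.52) and Aop RNAi (3.17 ± 1.08) were as low as TFAM o/e (SD, n = 3 each). None of the other 19 probe sets of zinc transporters and metallothioneins was called, and the metallothionein MtnA had a difference of 0.24. Hsc70-2, of the Hsp70 chaperone family, read 8.68, 8.62 and 8.32 in TFAM o/e against 4.26, 3.72 and 3.92. The difference was -4.57 (standard error 0.85, limma adjusted p = 0.0343). The SD was 0.19 in TFAM o/e and 0.27 with the hairpin, beside 1.63 in the control. With the floor, which reduces the scatter of dim arrays in every genotype, the difference was -3.54 (limma adjusted p = 7.55e-07). The 15 arrays of the other 5 genotypes were all under 6, the highest being control replicate 3 at 5.94, and the call was lost with any 1 of the 6 arrays left out (limma adjusted p up to 0.172). None of the other 11 probe sets of the heat shock list was called, among them Hsp26 (0.00), Hsp27 (0.23) and Hsc70-4 (0.30).

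A probe set shared by the ribosomal protein gene RpL28 and a small nucleolar RNA in it read 6.55, 7.58 and 7.08 in TFAM o/e and 8.48, 8.98 and 8.74 with the hairpin, a rise of 1.66 (standard error 0.23, limma adjusted p = 0.00142). The means of the other 4 genotypes were between 8.62 and 8.79. The other probe set of RpL28 had a difference of 0.24 (limma adjusted p = 1), so the probe sets disagree. It is among the 47 probe sets of the cytosolic ribosome list, of which none was called; their median difference was 0.24, and their mean per array was 10.78 to 11.65 in TFAM o/e, Pnt RNAi, 10.76 to 11.08 in TFAM o/e and 10.52 to 11.71 in the control. alphaTub84D, an alpha-tubulin, read 7.64, 8.34 and 8.22 against 6.53, 7.0 and 6.83, a difference of -1.28 (limma adjusted p = 0.0343), and its probe set may also take up its near-identical paralogues. A probe set of teq, a secreted protease, and RhoU, a small GTPase, read 10.50, 10.14 and 9.99 against 8.96, 9.06 and 9.09 (-1.17, limma adjusted p = 0.045). The bright probe sets of teq alone and RhoU alone had differences of -0.06 and -0.34. CG4686 was lower in TFAM o/e (10.28, 10.29 and 10.07) than with the hairpin (11.14, 10.89 and 10.95) by 0.78 (limma adjusted p = 0.0343). The calls of teq;RhoU and CG4686 were lost with any 1 array left out, and that of alphaTub84D with 5 of the 6.

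The other called genes have few established roles. CG43117 rose by 2.35 (limma adjusted p = 0.00125), from 5.81, 5.66 and 5.57 to 7.67, 8.18 and 8.24, and CG31436 by 1.90 (limma adjusted p = 0.00681), from 7.49, 6.88 and 6.89 to 8.75, 8.80 and 9.41. CG31436 was between 6.63 and 7.66 on all 15 other arrays, so that the combination of TFAM o/e and the Pnt hairpin lay apart from every other genotype. CG7720 (1.82), CG4558 (0.88) and a probe set with no gene name (1.94) were also higher. A probe set shared by CG42375 and CG9288 (-1.22, limma adjusted p = 0.000111), CG32407 (-0.99) and CG33232 (-0.85) were lower. The second probe sets of CG7720 and CG33232, both with a mean log2 under 6, had differences of 0.15 and -0.15. For CG42375;CG9288 the 12 arrays with either hairpin lay between 8.87 and 9.37 and the 6 without between 10.07 and 11.04. Dimmer calls, with a mean log2 under 6, were CG42331 (5.02, or 2.28 with values under log2 5 set to 5), a second one with no gene name (4.38 and 2.38), SkpB, a subunit of ubiquitin ligases (2.37 and 0.73), Phlpp, a phosphatase (-3.41 and 0.00), another with no gene name (-4.0 and 0.00) and CG3397 (-4.15 and 0.00). For the last 3 no value was above log2 5 on either side, so their differences lie within the range where signals scatter. Of these 3, the one with no gene name also lost its call with the replicate block (limma adjusted p = 0.0615). The second probe set of CG42331, also dim, had a difference of 0.26.

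The comparison of Pnt RNAi with the control shows the same hairpin without TFAM o/e on 6 other arrays, though in the same model, where the 2 comparisons share each probe set's estimate of the spread. It called 55 probe sets, 0.293% of those tested. Of the 30 calls under TFAM o/e, 26 had the same sign there, as did 50.6% of all probe sets, and 14 were called in the same direction, which is 46.7% of the 30 and 25.5% of the 55. Named by single genes, these were y, v, Cyp12a4, Mocs1, hng3 and CG43117, all higher, and CTCF, mod(mdg4), CG32407, CG6654 and CG3397, all lower. The remaining 3 were CG42375;CG9288 and the first and second of the probe sets with no gene name. The log2 difference of y was 4.79 under TFAM o/e and 5.93 without, that of v 3.19 and 3.2, that of Mocs1 1.45 and 1.24, and that of CTCF -1.0 and -1.22. Without control replicate 3, left out after seeing the data, 10 of the calls were shared in place of 14. Of the 30, 4 had the opposite sign, and only Zip102B was called in the opposite direction, with a difference of -6.56 between Pnt RNAi and the control. In that comparison of Pnt RNAi with the control, testis genes stood apart: the 28 probe sets of that list had a median of -1.41 and array means of 4.16 to 6.4 in the control and 2.91 to 3.44 in Pnt RNAi. The array means of this list were 3.27 to 3.39 in Aop RNAi, 2.99 to 5 in TFAM o/e and 3.22 to 4.34 in TFAM o/e, Aop RNAi. In TFAM o/e, Pnt RNAi they were 3.02 to 3.99, so the low level was not limited to Pnt RNAi. Under TFAM o/e the median difference of the testis list was -0.21 with none called. None of the 14 shared probe sets is in that list, and the part of testis RNA in them was not tested.

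**Figure D2:**
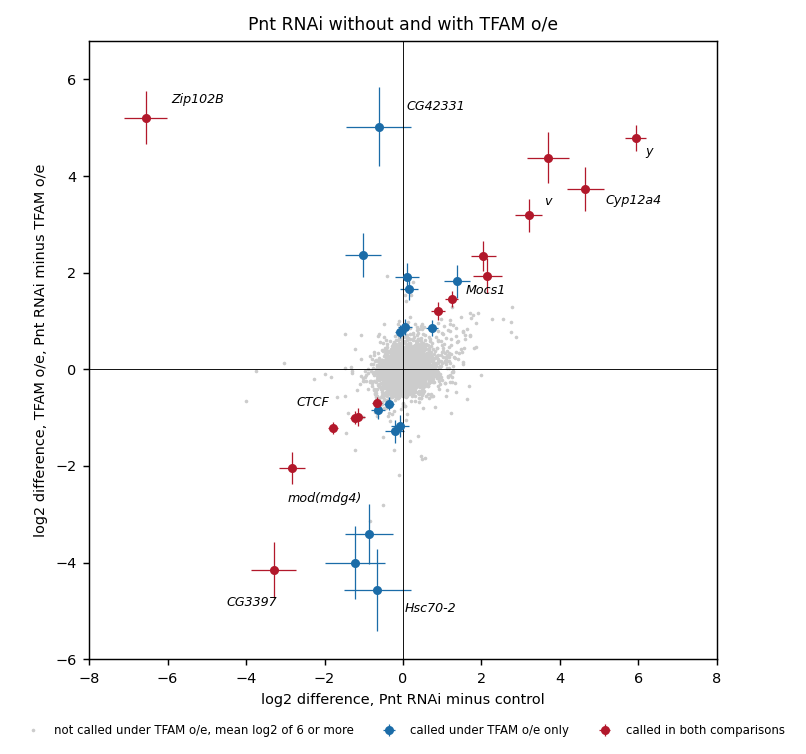
Log2 difference of Pnt RNAi from the control (horizontal) against that of TFAM o/e, Pnt RNAi from TFAM o/e (vertical), with standard errors for the 30 probe sets called in the second; grey points are the other probe sets with a mean log2 of 6 or more. The 15 red points were called in both comparisons, and Zip102B (-6.56 and 5.21) is the only one of them in a quadrant of opposite signs.

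The difference between the 2 comparisons was tested directly as an interaction, which asks whether the hairpin's difference depends on TFAM o/e. It called 5 probe sets, 0.0266% of those tested: Zip102B, RFeSP, Sox102F, SCAP and Idgf3. For RFeSP, the Rieske iron-sulfur protein of respiratory complex III, the arrays read 9.01, 8.79 and 8.74 in the control, 5.01, 5.28 and 5.01 in Pnt RNAi, 8.75, 8.70 and 8.75 in TFAM o/e, and 8.87, 8.70 and 8.53 in TFAM o/e, Pnt RNAi. Of these 4 genotypes only Pnt RNAi was low, and the interaction was 3.71 (standard error 0.33, limma adjusted p = 1.1e-05). SCAP, which escorts the lipid regulator SREBP (interaction 2.08, limma adjusted p = 0.025), and Idgf3, a chitinase-like growth factor (1.68, limma adjusted p = 0.000612), had the same shape. Their differences from the control in Pnt RNAi were -2.27 and -1.84, whereas under TFAM o/e their differences were -0.20 (interval -0.68 to 0.29) and -0.16 (interval -0.45 to 0.14). The second probe sets of RFeSP and Idgf3 were not called, with interactions of 0.56 and 0.50 (limma adjusted p = 0.959 for both) and differences of -0.48 and -0.55 in Pnt RNAi against the control, so the low level rests on 1 of 2 probe sets in each. Sox102F, an HMG-box transcription factor, was at 8.66 in the control, 7.20 in Pnt RNAi, 7.31 in TFAM o/e and 8.04 in the combination (interaction 2.20, limma adjusted p = 0.0274).

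**Figure D3:**
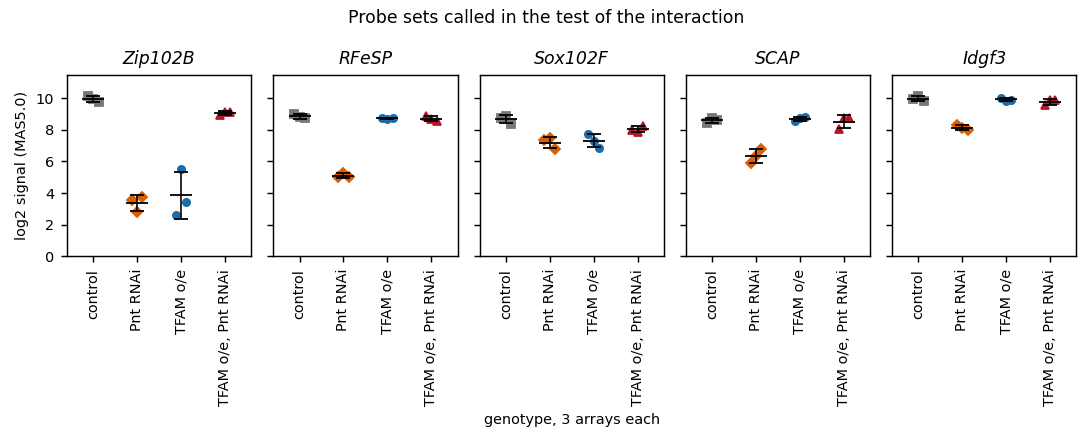
Log2 signals of the 5 probe sets called in the interaction test, by genotype; coloured points are arrays, the black bar is the mean and the whiskers are 1 SD (n = 3). The probe sets shown for RFeSP, SCAP and Idgf3 are low in Pnt RNAi and lie near the control in TFAM o/e, Pnt RNAi.

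Genes that TFAM o/e changed against the control are of interest because retrograde signaling from disturbed mitochondria to the nucleus is what the study examined. TFAM o/e against the control called 34 probe sets, 0.181% of those tested. Since both comparisons use the TFAM o/e arrays, their values are only set side by side. Ldh, the lactate dehydrogenase of anaerobic glycolysis, was 1.69 above the control in TFAM o/e and read 11.85, 11.79 and 12.09 there and 11.90, 11.76 and 11.75 with the hairpin added, a difference of -0.11 (interval -0.59 to 0.37). Ilp3, an insulin-like peptide of the brain with a difference of -0.97 between TFAM o/e and the control, read 10.08, 10.13 and 10.05 against 9.94, 10.15 and 9.96 (difference -0.07, interval -0.31 to 0.17), and the insulin-like peptide Ilp1, with -2.14 in TFAM o/e against the control, differed by -0.09 (interval -0.90 to 0.72). The heat shock probe set Hsp22;CG4456, a mitochondrial small heat shock gene with its neighbour, was 2.67 above the control and differed by -0.06 (interval -0.59 to 0.47) between the groups compared. A second probe set of the same genes was not called in TFAM o/e against the control (0.50) and had a difference of 0.94 (interval -0.39 to 2.27) with the hairpin, so the probe sets disagree. Thor, the translational repressor 4E-BP, was not called in TFAM o/e against the control (1.76, limma adjusted p = 0.566) and read 11.29, 10.93 and 10.33 against 11.83, 10.79 and 10.15, which overlap, with a difference of 0.07. For CG15784 (2.05 in TFAM o/e against the control), CG7607 (1.34) and botv, an enzyme of heparan sulfate synthesis (-1.35), the hairpin's differences were -0.06, -0.16 and -0.03. Hsc70-2, the RpL28 probe set and Zip102B differed from the control in TFAM o/e by 4.45, -1.55 and -6.09. In TFAM o/e, Pnt RNAi their means were 3.97, 8.73 and 9.06, beside 4.09, 8.62 and 9.94 in the control. CG42375;CG9288 had -0.76 in TFAM o/e against the control and a further -1.22 with the hairpin.

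**Figure D4:**
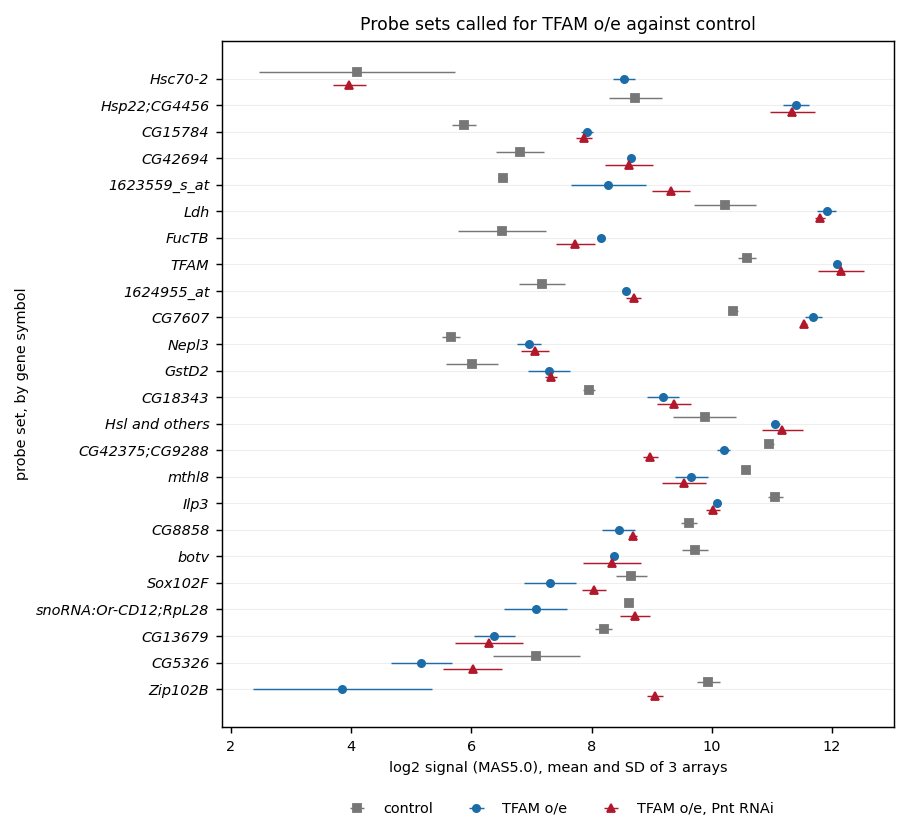
Log2 signals (mean and SD of 3 arrays) of the 24 probe sets called for TFAM o/e against the control whose mean of those 2 groups is 6 or more, in the control (grey), TFAM o/e (blue) and TFAM o/e, Pnt RNAi (red). Ldh, Ilp3, the called probe set of Hsp22;CG4456 and TFAM have red points within 0.11 of the blue ones, whereas Hsc70-2, Zip102B and the RpL28 probe set have red points near the grey.

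Genes of the pathway that Pnt serves showed no call. With 0.16% of all probe sets called, lists of this size would seldom hold one, so this says little about the pathway. The Ras-ERK components, 16 probe sets for 14 of 20 listed genes, held no called probe set, and their median difference was -0.04, beside 0.01 for all probe sets. Ras, Raf and ERK themselves were not among the 14 genes measured, so nothing is shown of their levels. The adaptor drk had -0.01, the exchange factor Sos 0.02, the kinase scaffold ksr -0.03 and MEK, encoded by Dsor1, -0.04. Among ligands, targets and feedback inhibitors none of 20 probe sets was called (median 0.01): the Egfr ligand spi had 0.10, the inhibitors argos (aos) -0.15 and sprouty (sty) 0.21 and -0.11 at its 2 probe sets, and the ERK phosphatase Mkp3 0.18 and 0.17. In the list of ETS factors and related genes, which includes aop, none of 7 probe sets was called. There edl, an antagonist of Pnt and Yan, had 0.02, Ets97D 0.03 and Ets65A 0.53.

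The same held for mitochondrial and neuronal genes. Of the 39 lists examined, 35 had no called member, and the median difference of 28 lay within 0.1 of 0. As 0.16% of all probe sets were called, a list without a call is the usual outcome. Mitochondrial DNA maintenance ranged from -0.07 to 0.08 over its 9 probe sets, among them mtSSB (0.08) and the polymerase PolG1 (-0.07). Complex I (35 probe sets, median 0.01), the mitochondrial ribosome (71, median 0.00), ATP synthase (17, median 0.05) and glycolysis (11, median 0.07) had no calls. Within the mitochondrial ribosome, mRpL45 (-0.68) and mRpS6 (-0.64) had the lowest values and missed the threshold (limma adjusted p = 0.108 and 0.395). Presynaptic genes (40 probe sets, median 0.07), neuropeptides (35, median 0.03) and ion channels (37, median 0.07) had none called either, nor had neuroblast (21, median 0.05), glial (14, median -0.01) or cell cycle genes (15, median -0.03).

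**Figure D5:**
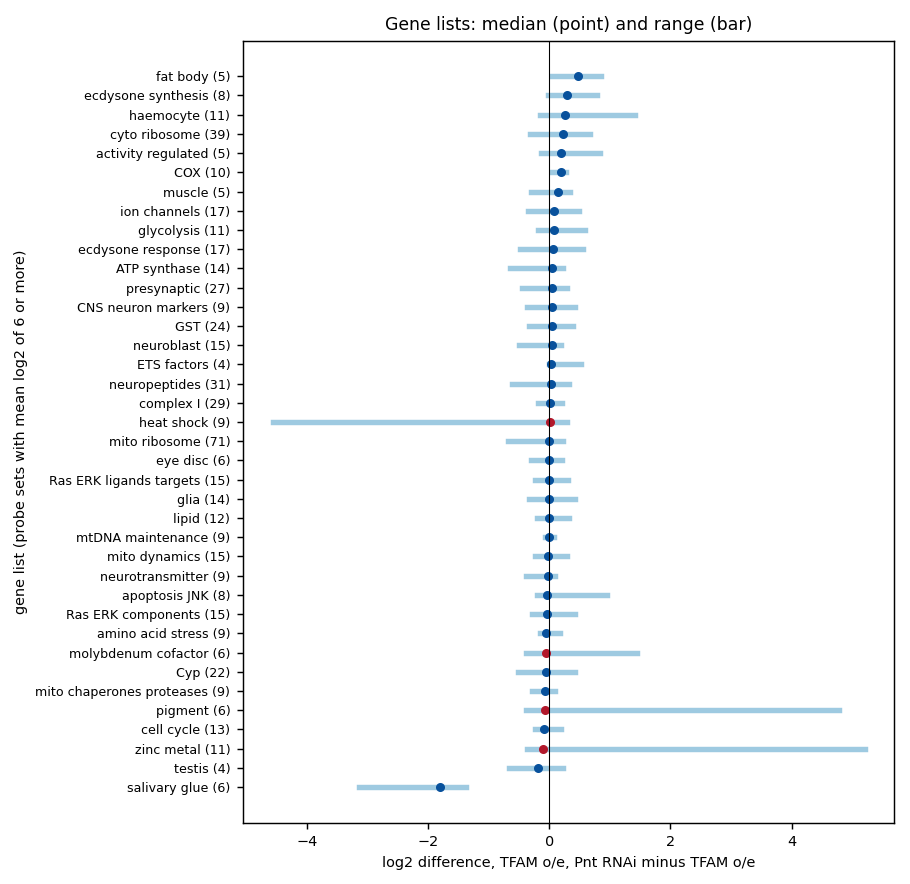
Median (point) and range (bar) of the log2 difference of TFAM o/e, Pnt RNAi from TFAM o/e over the members of 38 gene lists with a mean log2 of 6 or more; red points mark lists with a called member, and the number of probe sets is in brackets. Most medians lie near 0, the bars of the heat shock, zinc and pigment lists are drawn out by Hsc70-2, Zip102B and y, and the salivary glue list lies to the left at a median of -1.81 with none called.

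The glue genes of the salivary gland, which lies outside the CNS, formed the list farthest from 0. Over all 10 probe sets the median was -1.43, with none called. Sgs7 read 10.53, 11.91 and 8.56 in TFAM o/e and 8.37, 8.65 and 8.4 in TFAM o/e, Pnt RNAi, and Sgs3 read 9.92, 11.46 and 8.36 against 9.15, 8.75 and 7.71. In both, TFAM o/e replicate 3 lay within the range of the hairpin arrays, and TFAM o/e replicate 2 was highest. The list's mean per array was 6.01 to 8.02 in TFAM o/e, 5.48 to 5.94 in TFAM o/e, Pnt RNAi, 5.11 to 7.19 in the control and 5.27 to 6.90 in Pnt RNAi. Other genes highest in TFAM o/e replicate 2 were among the largest differences short of the adjusted threshold. These were Sgs5bis (-3.15), CG7606 (-2.81), the ecdysone-induced gene Eig71Ee (-2.19) and CG15404 (-1.67). Unlike in Sgs7 and Sgs3, their arrays did not overlap between the groups. The part of salivary gland RNA in these differences was not tested.

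Other lists from outside the CNS had medians nearer 0. Haemocyte genes had a median of 0.21 with none called. PPO1 and PPO2, the prophenoloxidases of crystal cells, had differences of 1.42 and 0.94. For PPO1 the values were 5.63, 9.07 and 7.08 in TFAM o/e and 8.47, 8.90 and 8.67 with the hairpin. The crystal cell transcription factor lz, in the same list, went the other way with -0.16. Muscle (15 probe sets, median 0.19), fat body (11, median 0.18), ecdysone synthesis (9, median 0.24) and eye disc genes (8, median 0.00) had no calls. The means of the ecdysone synthesis list were 7.07 to 9.24 in TFAM o/e and 8.33 to 9.39 with the hairpin.

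Below the adjusted threshold, 62 further bright probe sets with 1 gene symbol passed the methods' thresholds without overlap between the arrays, 31 higher and 31 lower. Of all brighter probe sets 1.4% passed these thresholds, and of all probe sets 9.53% had no overlap and 4.6% an unadjusted p under 0.05. The genes that follow are therefore listed by size of difference, and none is a call of the main test. cnc, the fly relative of the oxidative stress factor Nrf2, read 10.51, 10.68 and 10.63 in TFAM o/e and 9.18, 9.21 and 9.48 with the hairpin. The groups were apart by -1.32 (standard error 0.27, limma adjusted p = 0.0684, or 0.0236 with the replicate block), and in Pnt RNAi against the control the difference was -1.45 (limma adjusted p = 0.0208). Of 36 probe sets of glutathione S-transferases, which include known targets of cnc, none was called (median 0.02). Nf-YA, a CCAAT-binding factor, had a difference of -0.92, and CG14285 (-1.06), CG31347 (-1.04), CG42540 (-0.96, with 0.38 at a brighter probe set) and CG6071 (-0.92) were the next lowest, at limma adjusted p between 0.309 and 0.763. On the higher side were CG18545 (1.53), CalpC, a calpain relative (1.29), Spn43Ab, a serpin (1.08), CG11052 (1.05), CG18213 (1.02), CG5435 (0.98), Mal-B2, a maltase (0.94), Meics (0.87), the RNA-binding protein Rb97D (0.87) and CG6912 (0.85). CalpC read 7.45, 7.52 and 7.12 against 8.51, 8.83 and 8.63 (limma adjusted p = 0.148) and was 1.25 higher in Pnt RNAi than in the control (limma adjusted p = 0.119).

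Brighter genes near the called ones showed no calls of their own. In the order of the RefSeq annotation (release 6), the nearest 3 genes on each side of 23 called genes were taken. Only probe sets with 1 symbol and a mean log2 of 6 or more were used, so dimmer neighbours were skipped, and 148 probe sets remained. None of these was called and 6 had an unadjusted p under 0.05, or 4.05%. The share was 4.6% of all probe sets, but that base includes the dim ones. Of the 6, 5 had the direction of the called gene. The clearest was pst, beside CTCF, with -0.54 under TFAM o/e and -0.46 in Pnt RNAi against the control.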

How the data were processed

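RNA from the CNS of larvae, 10 ng per array, was amplified and hybridised to Affymetrix Drosophila Genome 2.0 arrays. Per the methods and the labels, the authors computed signals with MAS5.0 in the Transcriptome Analysis Console and deposited them as log2 values; the genome build is not given in the sources used here. These log2 values were used without further scaling. A linear model with 6 genotypes was fitted to 18 arrays in R 4.3.3, with limma 3.58.1 moderating the variances along their trend with intensity; each comparison was adjusted by Benjamini-Hochberg over 18769 probe sets and read at 0.05. Intervals are 95%. The number of arrays limits the precision.

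The platform table gave 13646 probe sets 1 symbol, 13543 of which were updated by Entrez identifier. A further 86 took their names from the study's tables, v, Cyp12a4, pnt, Ldh, Ilp3 and Thor among them, and were kept out of the gene list counts; 4626 stayed unnamed and 411 had several symbols. w, also in the rule, has no probe set under that symbol here. Named genes are all calls, the 10 largest rises and falls among bright probe sets short of the adjusted threshold, and TFAM, pnt, aop, y, v, Hsc70-2, Thor, Hsp22, Ldh and Ilp3, and of each list the called members and the 2 with the highest mean; any further gene was named with its values already in view. The members, lists and rules were chosen with earlier results of these data known.

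Alternatives were quantile normalization, median centring, a filter at mean log2 6, a floor at log2 5, a variance prior without trend, a fit of only these 6 arrays, a block for the replicate number, each array left out, control replicate 3 left out (added after seeing the data), and the methods' t-test with Tukey bi-weight means and a 1.5-fold threshold. The residual correlations of arrays with the same number, over 8563 probe sets, were 0.342, 0.176 and 0.454. Those of arrays with unlike numbers ran from -0.353 to 0.0275. Arrays of the same number were thus more alike, but 3 arrays a group are too few to establish a pairing, and the labels state none. The main test does not use the number, and the results with it as a block are given below. On simulated data for this comparison, 200 of 18769 probe sets were changed, all taken from the brighter part with a mean log2 of 6 or more. Recovery was 20.9% at 1.5-fold, 62.7% at 2-fold and 92.4% at 4-fold, and 9 of 18569 unchanged ones were called. Recovery under log2 6, where values scatter more widely, was not tested. The likeness of arrays with the same number was not built into the simulation, so these rates need not hold for the real arrays. Gene order came from RefSeq release 6. Figures were drawn with matplotlib 3.10.9.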

Additional observations from a re-analysis of the deposited data

Results flagged for a closer look

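In 5 probe sets the difference between arrays with and without the Pnt hairpin depended on TFAM o/e, as tested by the interaction term of limma. The interaction was 11.77 for Zip102B (limma adjusted p = 1.99e-07), 3.71 for RFeSP (1.1e-05), 2.20 for Sox102F (0.0274), 2.08 for SCAP (0.025) and 1.68 for Idgf3 (0.000612), all on the log2 scale. All 3 arrays of TFAM o/e, Pnt RNAi were above all 3 of Pnt RNAi in each of the 5. The same arrays enter the interaction by which the 5 were picked, so this order adds no support. For RFeSP and Idgf3 the second probe set of the gene did not pass (0.56 and 0.50, limma adjusted p = 0.959 for both).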

How the results depend on the processing

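The 30 calls became 17 with only the 6 arrays compared, 28 with quantile normalization, 20 with median centring, 24 without the intensity trend, 25 with a floor at log2 5 and 12 to 18 with each array left out. The 23 brighter calls became 14 with median centring, 11 without the trend, 13 with only the arrays compared and 9 to 13 with each array left out. The 5 interaction calls became 9 with the floor, 2 with median centring, 3 without the trend and 3 to 5 with each array left out, and the 14 calls shared with Pnt RNAi against the control 9 to 11. The 703 probe sets at the methods' thresholds became 156 with the floor, 120 with the filter at log2 6 and 555 with the methods' t-test, of which 2 passed after Benjamini-Hochberg adjustment. Their split of 485 higher and 218 lower became 339 and 339 with quantile normalization, 424 and 291 with median centring, 81 and 75 with the floor and 65 and 55 with the filter. With the replicate block there were 35 calls, 29 of them the same probe sets, 29 brighter calls, 6 interaction calls and 20 shared calls. Beside pnt, cnc, a second probe set of CTCF and the dim probe set given above, the block changed no other call among the named genes. Without control replicate 3, left out after seeing the data, there were 31, 25, 4 and 10 calls in the same order.

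No called gene changed direction under any alternative. Uncalled values near 0 did. aop became 0.03 with quantile normalization and ran from -0.13 to 0.17 with each array left out, Hsp22;CG4456 from -0.27 to 0.06, TFAM from -0.14 to 0.23 and Thor from -0.38 to 0.46. TFAM became -0.01 with median centring and -0.02 with quantile normalization, and Thor -0.01 with median centring. The cause was not tested. At log2 signals under 6 the median 95% interval reached 1.74 in either direction, against 0.40 above, so small differences of dim transcripts could not be detected.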

Other observations

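Of the called probe sets, 23 had a chromosome arm in the RefSeq annotation (release 6), and 16 of these, 69.6%, were on chromosome 3, beside 44.9% of all probe sets with an arm. Among the called probe sets shared with Pnt RNAi against the control in the same direction it was 9 of 11, and among the 62 further probe sets short of the adjusted threshold 45, or 72.6%. In Pnt RNAi against the control as a whole it was 53.3%. These shares carry no test.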
